A study of Mus musculus with 20 samples.

Results

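The comparison described here set the atria of MyHC-Creld1 KO pups, in which Creld1 was deleted in the myocardium, against the atria of wild-type pups at postnatal day 3 (P3). Its members were chosen by the labels as all libraries of P3 atria, which gave 6 of the 20 libraries of the series: 3 from knockout pups and 3 from wild-type pups. All animals were C57BL/6N mice, each library came from 1 pup, and the pups' sex was not labelled. Knockout and wild-type libraries with the same replicate number came from the same litter and the same preparation date, so each number is 1 pair, and pairs 2 and 3 carry the same breeding number with different litter dates. The labels name no further allele and no separate driver line. MyHC names cardiac myosin heavy chain, so fibroblasts, endothelial cells and blood cells of the knockout atria are not its target. The series also holds P3 ventricles that the labels give to the same 6 pups, and whole hearts at E13.5. The ventricles are used below to set the atrial differences beside those of the other chamber, and they also enter the estimate of the spread. The E13.5 hearts enter only that estimate.

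CRELD1 is a membrane protein of the endoplasmic reticulum with EGF-like domains. In mice it has been linked to signalling through calcineurin and NFATc1 in the heart, and in people CRELD1 variants have been linked to atrioventricular septal defects. In the first days after birth mouse cardiomyocytes go through their last divisions, replace fetal and skeletal protein isoforms with adult cardiac ones, and turn from glycolysis to the oxidation of fatty acids. Atria are also the main source of natriuretic peptide A, a hormone released on wall stretch.

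Values are the authors' normalized signal, in which libraries share 1 scale. Estimated totals were 16998523, 10507655 and 10339312 reads in knockout libraries 1, 2 and 3, and 15885519, 5138353 and 5902420 reads in wild-type libraries 1, 2 and 3. Atrial markers were high in all 6: Sln, the atrial inhibitor of the calcium pump, lay between 5744 and 10118 in the knockout libraries and between 9151 and 19121 in the wild-type libraries. Ventricular markers stood out in 1 library. Myl2, the ventricular regulatory light chain, was at 93.5, 97.2 and 51.2 in knockout libraries 1 to 3, and at 40.8, 9242 and 21.7 in wild-type libraries 1 to 3. Irx4, a ventricular transcription factor, was at 26.5 in the library labelled wild-type 2 and at 0 in the other 5. That library thus held ventricular transcripts. List medians are followed by their range with 1 pair left out at a time where that range moves them by over 1.5 times or turns their sign. The labels also tie it to the same pup as a ventricular library with which it disagreed in sex-linked transcripts: Xist, made from the inactive X, was at 2876 in the atrial and 74.9 in the ventricular library of wild-type pup 2, and Ddx3y, on the Y, was at 1.83 and 465. In the other atria Xist was at 20.4, 2485 and 1591 in knockout libraries 1, 2 and 3, and at 3596 and 6119 in wild-type libraries 1 and 3. Knockout library 1 had Ddx3y at 532, against at most 10.8 in the other 5. The 2 libraries of pair 1 thus differed in sex-linked transcripts, so sex and genotype cannot be told apart in that pair. Both libraries of pair 3 were offset by base composition. Their deviations from the group mean rose by 0.82 (knockout) and 0.87 (wild-type) on the log2 scale for each 10% of transcript GC, against slopes of -0.38 to -0.44 in the other 4, while the differences within pairs had slopes of 0.15, 0.08 and 0.03 in pairs 1, 2 and 3.

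Creld1 itself (chromosome 6, 113483297 to 113493343, plus strand, mm10) was at 23.1, 26.6 and 82.4 in knockout libraries 1, 2 and 3, against 105, 21.6 and 146 in wild-type libraries 1, 2 and 3. It was lower in the knockout in pairs 1 and 3 and not in pair 2, and the groups overlapped. The log2 fold changes were -2.14, 0.29 and -0.82 in pairs 1, 2 and 3, and the mean was -0.89 ± 0.73 (SE of the fit) with an adjusted p of 0.805 by limma. These levels rested on an estimated 41.2, 26.7 and 129 reads in the knockout and 148, 9.76 and 149 reads in the wild-type libraries, so the level in the library labelled wild-type 2 was the least precise. The targeted exons were not given in the sources used here, so reads outside a deleted part cannot be told from an intact transcript. In bulk tissue, fewer cells of a type and less RNA per cell cannot be told apart, here and in the results that follow.

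In the knockout atria 21 of 15184 tested genes were higher (0.138% of those tested) and 10 were lower (0.0659%), at an adjusted p under 0.05 in a limma fit with pairs as a block. Higher genes included the imprinted hydrolase gene Mest, the natriuretic peptide genes Nppb and Nppa, the skeletal calsequestrin gene Casq1, smooth muscle actin (Acta2), globins, and the mitotic survivin gene Birc5. Lower genes included myoglobin (Mb), the matrix proteoglycan genes Lum and Dcn, the calcium pump gene Atp2a2, and the mitochondrial transcripts mt-Rnr2 and mt-Nd4l. All 31 had 1 sign in 3 of 3 pairs, against 16.6% (higher) and 17.3% (lower) of all tested genes. The groups did not overlap for 17 of the 21 higher and 6 of the 10 lower genes, where 4.1% of all tested genes had every knockout library above and 4.02% below every wild-type library. The 31 were selected on these same values, so neither their signs nor their lack of overlap is separate support for the calls. Mest and Casq1 were the only genes of the 31 still called with each pair left out in turn. The calls depended on how the spread was estimated: the same fit without the block called 4 higher and 1 lower, the 6 atrial libraries alone called 12 and 3 with the block and 0 and 0 without it, and a fit without the variance trend called 0 and 0, with 1269 genes at an unadjusted p under 0.05.

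**Figure D1:**
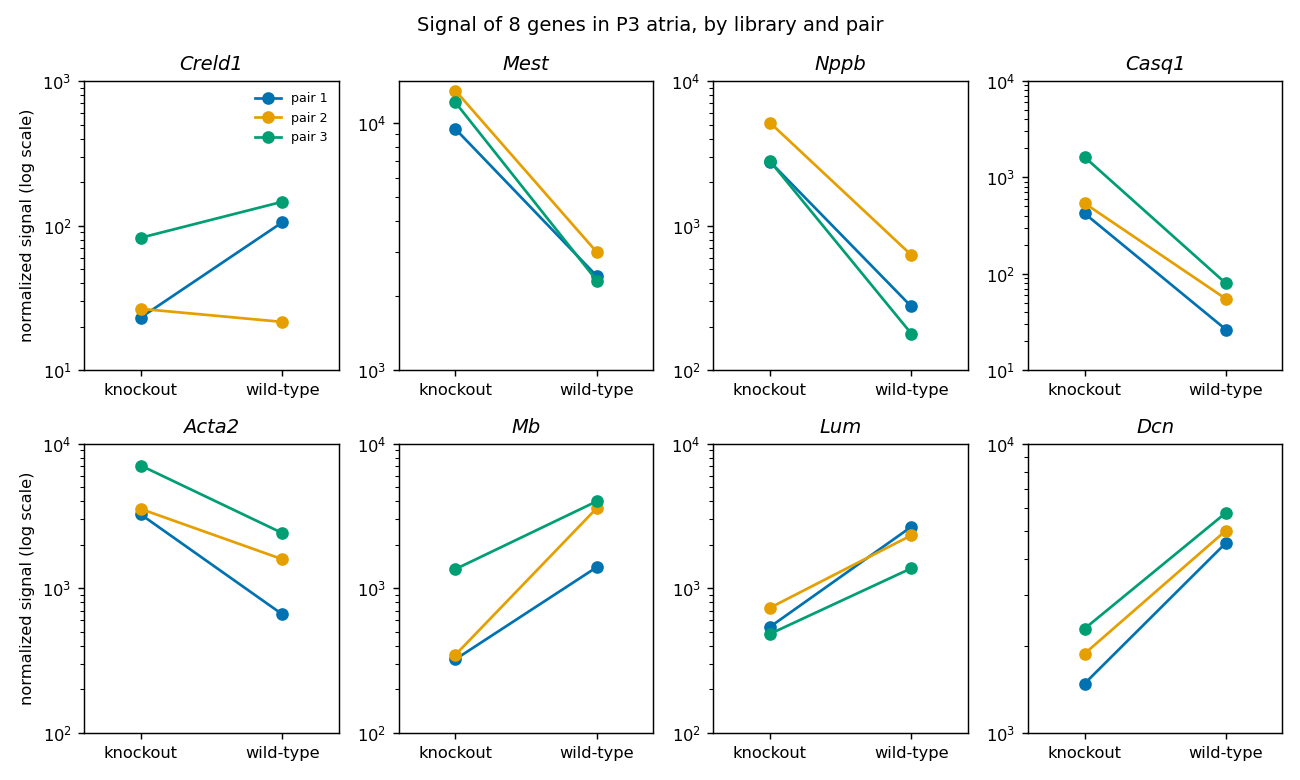
Normalized signal (log axis) of 8 genes in each knockout and wild-type P3 atrial library, with lines joining the libraries of a pair. Creld1 is lower in the knockout in pairs 1 and 3 and overlaps between groups, Mest, Nppb, Casq1 and Acta2 lie above their wild-type libraries in every pair, and Mb, Lum and Dcn lie below them.

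Mest, an imprinted gene expressed from the paternal copy and high in fetal mesoderm (chromosome 6, 30723547 to 30748465, plus strand, mm10), gave the smallest p-value. It was at 9463, 13530 and 12112 in knockout libraries 1, 2 and 3, against 2405, 3004 and 2306 in wild-type libraries 1, 2 and 3. Every knockout library was above every wild-type library by more than the spread of either group. The log2 fold changes were 1.98, 2.17 and 2.39 in the 3 pairs, with a mean of 2.18 ± 0.17 (SE; adjusted p = 6.30e-05). Mest overlaps exons of Copg2 on the other strand, and strand use in the counting was not given. Of the other 18 tested genes of the imprinted growth list, none was called higher and 1, Dcn, was called lower. The list's median log2 fold change was 0.10 (-0.09 to 0.18 with a pair left out), against 0.00 over all tested genes. Peg3, a paternally expressed zinc finger gene, was at 3465, 2340 and 1873 in the knockout against 4547, 2671 and 2508 in the wild-type libraries (log2 fold change -0.33, adjusted p = 0.533). Slc38a4, an imprinted amino acid transporter gene, was at 562, 691 and 433 in the knockout against 482, 635 and 265 in the wild-type libraries, with a log2 fold change of 0.35 and an adjusted p of 0.626.

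The natriuretic peptide genes, which encode hormones released by stretched heart muscle, were higher in the knockout. Nppb (chromosome 4, 147985788 to 147987205, plus strand) was at 2769, 5153 and 2798 in knockout libraries against 276, 626 and 179 in wild-type libraries 1, 2 and 3, with no overlap. Its log2 fold change was 3.44 ± 0.40 (SE; adjusted p = 0.00317), and without pair 1 the adjusted p was 0.0557. Nppa was at 98476, 95071 and 379853 in the knockout against 45736, 32880 and 115762 in the wild-type libraries. Knockout libraries 1 and 2 lay below wild-type library 3, but each was above its own littermate (log2 fold changes of 1.11, 1.53 and 1.71; mean 1.45 ± 0.27, SE; adjusted p = 0.0456). The Nppa call was lost with any pair left out, with adjusted p-values of 0.176, 0.196 and 0.253. Ankrd1, a stretch-responsive nuclear partner of titin, was at 39174, 41217 and 26935 in the knockout against 24625, 21085 and 6899 in the wild-type libraries, a log2 fold change of 1.20 with an adjusted p of 0.161. Over the 12 tested genes of the wall stress list the median was 0.23 (0.16 to 0.51 over all alternatives), with 2 called higher and 0 lower.

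The promoter of Nppb is shown because it carries a motif that only a small share of promoters holds more than once. The 150 bases before its RefSeq start (GRCm38.p6, chr4:147985750-147985899, plus strand) read, 5′ to 3′, with GATAA, a core read by GATA factors, in capitals:
Nppb: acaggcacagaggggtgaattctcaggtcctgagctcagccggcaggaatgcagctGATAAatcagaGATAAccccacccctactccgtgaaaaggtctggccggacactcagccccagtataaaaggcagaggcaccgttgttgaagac
The motif lies at -94 to -90 and at -83 to -79 from that start, which lies downstream of the first base of the gene in GENCODE. In the 250 bases before the start, with both strands searched, 2.53% of 10338 tested genes with a promoter in the table held GATAA at least 2 times and 18.3% held it at least once. Of the 21 called genes with a promoter there, 11 held it at least once, and Nppb, Nppa and Cfl1 held it at least 2 times. A match is a description of the letters and not a site of binding.

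Of 12 tested genes of fetal and skeletal muscle isoforms 7 were positive and 5 negative, and 2 were called higher and 0 lower. Their median log2 fold change was 1.33 (0.81 to 1.31 with a pair left out, the lowest without pair 3), with 1.04, 0.91 and 1.28 in pairs 1, 2 and 3. Casq1, the calcium store protein of skeletal muscle (chromosome 1, 172209894 to 172219868, minus strand), was at 424, 540 and 1628 in the knockout against 26.4, 55.0 and 79.6 in the wild-type libraries 1, 2 and 3. Knockout and wild-type libraries did not overlap, and the log2 fold change was 3.85 ± 0.39 (SE; adjusted p = 0.000912). Acta2, the smooth muscle actin that fetal cardiomyocytes also express, was at 3244, 3539 and 7065 in the knockout against 662, 1591 and 2414 in the wild-type libraries (log2 fold change 1.66 ± 0.24, SE; adjusted p = 0.0153). Its neighbours in smooth muscle programs did not pass. Tagln, an actin-binding protein gene, was at 1181, 1035 and 2307 in the knockout against 217, 406 and 1040 in the wild-type libraries, with a log2 fold change of 1.64 and an adjusted p of 0.145. Cnn1, the calponin gene, had a log2 fold change of 2.80 (adjusted p = 0.0879). Myh11, the myosin of mature smooth muscle, pointed the other way, at 1.12, 0 and 28.7 in the knockout against 17.7, 148 and 720 in the wild-type libraries (adjusted p = 0.196). Of 15 tested smooth muscle and pericyte markers 7 were positive and 8 negative, so the list did not rise as a whole. Their median was -0.06 (-0.34 to 0.12 with a pair left out), with 0.23, -0.22 and -0.35 in pairs 1, 2 and 3. The summed signal of 16 smooth muscle and pericyte markers was 6896 to 18174 in the knockout against 3098 to 11306 in the wild-type libraries. This sum includes Acta2, the 1 called member, so it is not separate from that call. Its part in the Acta2 result was not tested. Tnnt1, slow skeletal troponin T, was at 374, 290 and 166 in the knockout against 833, 756 and 235 in the wild-type libraries (log2 fold change -1.01, adjusted p = 0.151).

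Sarcomere genes shared by the chambers had a median of 0.12 over 20 members (-0.02 to 0.19 with a pair left out) and 0 called in either direction. Actc1, cardiac actin, was at 34454, 36380 and 54017 in the knockout against 25481, 26925 and 23934 in the wild-type libraries, with no overlap but an adjusted p of 0.216 (log2 fold change 0.68). Atrial chamber genes had a median of 0.03 over 19 (-0.17 to 0.13 with a pair left out), with Nppa as the only called member. Ventricular chamber genes had a median of -0.43 over 18 (-1.16 in pair 2, against 0.21 and 0.42 in pairs 1 and 3), and of 0.25 without pair 2.

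The remaining called genes of higher level are given here without a shared theme. Tmsb10, which binds actin monomers, was at 4181, 3868 and 8317 in the knockout against 2092, 2203 and 1875 in the wild-type libraries (log2 fold change 1.32, adjusted p = 0.0371). Nuak1, a kinase of the AMPK family, was at 315, 415 and 317 in the knockout against 66.0, 129 and 68.8 in the wild-type libraries (log2 fold change 2.03, adjusted p = 0.0407). Both genes had all knockout libraries above all wild-type libraries. Sox11, a transcription factor of the fetal heart, was at 599, 471 and 236 in the knockout against 220, 201 and 90.0 in the wild-type libraries. Its difference was nearly equal in the pairs at 1.44, 1.22 and 1.38 (mean 1.35, adjusted p = 0.0202). Myl6, a non-muscle myosin light chain gene, Cfl1, the actin-severing cofilin gene, Pclaf, a PCNA partner, and the pseudogene Gm4739 were also called higher, and were named after their values were seen, as was Cldn11 below. Myl6 had a log2 fold change of 1.21 (adjusted p = 0.0077), Cfl1 1.05 (0.0371), Pclaf 1.19 (0.0371) and Gm4739 1.15 (0.0491), the last being a copy whose reads may come from its parent gene. Fetal RNA-binding and growth genes as a list had a median of 0.58 over 9 (0.14 to 0.54 with a pair left out), with Sox11 as the only call.

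**Figure D2:**
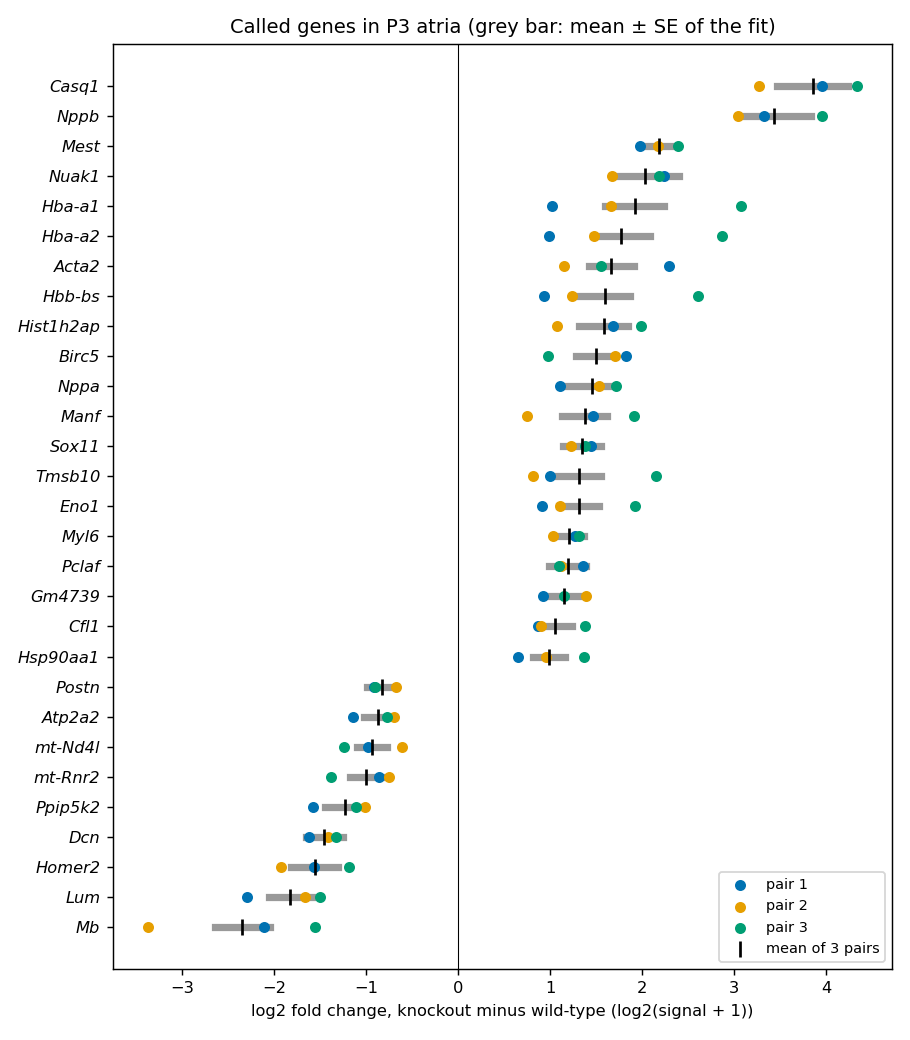
Log2 fold change, knockout minus wild-type on the log2(signal + 1) scale, of 29 of the 31 called genes in each pair (dots), with the mean of the 3 pairs (black tick) and its SE in the fit (grey bar). The dots of each gene lie on 1 side of 0; Casq1 and Nppb are farthest right at means of 3.85 and 3.44, Mb is farthest left at -2.35, and Cldn11, at -5.51, is off the plot.

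Calcium cycling genes moved in both directions. Atp2a2, the pump that returns calcium to the sarcoplasmic reticulum, was at 17965, 19669 and 13611 in the knockout against 39562, 31832 and 23188 in the wild-type libraries, with no overlap (log2 fold change -0.87 ± 0.16, SE; adjusted p = 0.0456). Casq1, above, was the other called member of the 20 on this list, whose median was -0.21 (-0.30 to -0.11 with a pair left out) with 6 members positive and 14 negative. Sln, which inhibits the pump in atria, was at 9142, 5744 and 10118 in the knockout against 17561, 9151 and 19121 in the wild-type libraries, lower in 3 of 3 pairs without passing (log2 fold change -0.84, adjusted p = 0.270). Hrc, a luminal calcium-binding protein gene, was at 162, 161 and 193 in the knockout against 410, 232 and 395 in the wild-type libraries (log2 fold change -0.96, adjusted p = 0.182). Homer2, a scaffold that links calcium channels and receptors, was called lower at 156, 124 and 76.6 in the knockout against 464, 471 and 176 in the wild-type libraries (log2 fold change -1.56, adjusted p = 0.0371). Ppip5k2, an inositol pyrophosphate kinase gene, was at 749, 998 and 164 in the knockout against 2243, 2007 and 355 in the wild-type libraries, and the groups overlapped, with both libraries of pair 3 low (log2 fold change -1.23, adjusted p = 0.0371).

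Ion channel, gap junction and conduction genes had negative log2 fold changes in 21 of 23 tested members, with 15 lower in 3 of 3 pairs and a median of -1.01 (-0.73, -0.74 and -1.31 in pairs 1, 2 and 3), but 0 were called in either direction and 7 were lower at an unadjusted p under 0.05, as were 609 of all tested genes (4.01%). Kcna5, which carries an ultrarapid potassium current of atria, was at 27.0, 0 and 9.58 in the knockout against 39.7, 39.8 and 50.9 in the wild-type libraries (log2 fold change -2.73, adjusted p = 0.196). Tbx3, the transcription factor of the sinus node and conduction tissue, was at 0.511, 32.6 and 11.8 in the knockout against 24.5, 54.3 and 36.9 in the wild-type libraries (log2 fold change -2.12, adjusted p = 0.298), and the groups overlapped. Cacna1d, a calcium channel gene of pacemaker cells, was at 17.5, 20.4 and 39.8 in the knockout against 63.6, 94.0 and 96.1 in the wild-type libraries (log2 fold change -1.74, adjusted p = 0.400). Kcna5, Tbx3 and Cacna1d were low genes, at no more than 96.1 in any of the 6 libraries. The calcineurin and NFAT genes, with a median of -0.16 over 15 (-0.16 to -0.09 with a pair left out), held 0 called genes, and Nfatc4 was at 115, 95.4 and 93.0 in the knockout against 130, 117 and 94.5 in the wild-type libraries (adjusted p = 0.944). Mef2a, a muscle transcription factor gene, was at 1595, 1333 and 959 in the knockout against 2880, 2612 and 1858 in the wild-type libraries, without passing (log2 fold change -0.92, adjusted p = 0.0578).

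**Figure D3:**
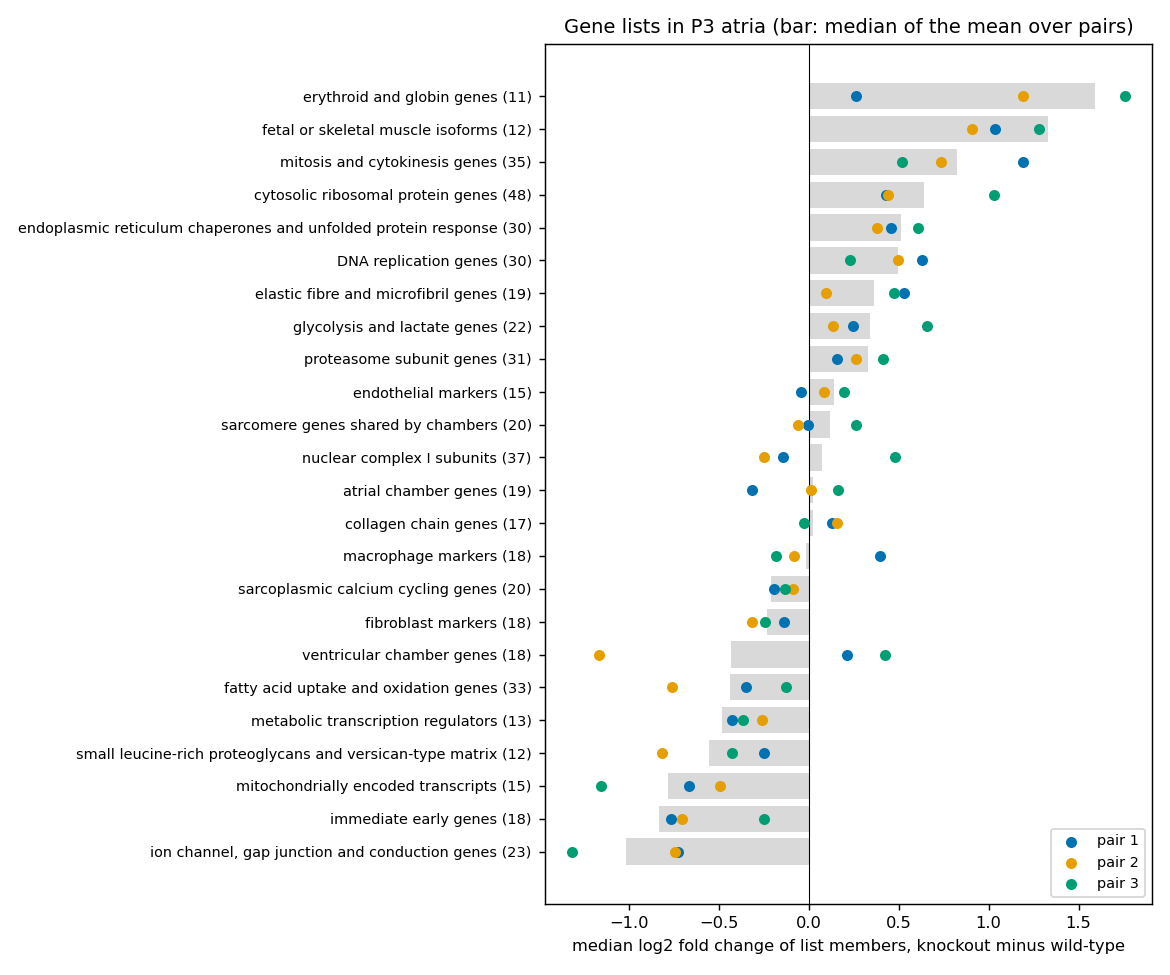
Median log2 fold change, knockout minus wild-type, of the members of 24 gene lists (number tested in brackets): grey bars give the median over members of the mean of 3 pairs, dots the median in each pair. Mitosis, ribosomal protein and chaperone genes lie right of 0 and mitochondrially encoded, ion channel and fatty acid genes left of 0 in all 3 pairs, while the ventricular list lies left of 0 in pair 2 only.

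Genes of mitosis and cytokinesis lay on 1 side: all 35 tested members had a positive log2 fold change, 26 of them in 3 of 3 pairs, with a median of 0.82 (1.19, 0.73 and 0.52 in pairs 1, 2 and 3). Of these 35, 1 was called higher and 0 lower, and 18 were higher at an unadjusted p under 0.05, as were 869 of all tested genes (5.72%). The called member was Birc5, which encodes survivin of the chromosomal passenger complex, at 785, 823 and 515 in the knockout against 220, 252 and 262 in the wild-type libraries. The groups did not overlap (log2 fold change 1.50 ± 0.22, SE; adjusted p = 0.0153). Top2a, the topoisomerase of chromosome condensation, was at 3884, 3831 and 979 in the knockout against 1602, 2302 and 643 in the wild-type libraries (log2 fold change 0.87, adjusted p = 0.107). Ube2c, the ubiquitin-conjugating enzyme of the anaphase-promoting complex, was at 477, 491 and 555 in the knockout against 109, 306 and 235 in the wild-type libraries (log2 fold change 1.34, adjusted p = 0.113). Racgap1, which organises the spindle midzone, was at 458, 482 and 489 in the knockout against 116, 167 and 340 in the wild-type libraries (log2 fold change 1.34, adjusted p = 0.113). Ube2c and Racgap1 did not overlap between groups, and neither passed. Ube2c shares exon positions with Tnnc2 on the other strand.

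Among 30 tested DNA replication genes 26 lay above 0, the median was 0.50, and 0 were called in either direction. Pcna, the sliding clamp, was at 2192, 2770 and 710 in the knockout against 1181, 2002 and 483 in the wild-type libraries (log2 fold change 0.64, adjusted p = 0.368). Rrm2, a subunit of ribonucleotide reductase, was at 4513, 8187 and 1006 in the knockout against 2335, 4534 and 893 in the wild-type libraries (log2 fold change 0.66, adjusted p = 0.339). The histone gene Hist1h2ap was called higher (log2 fold change 1.58, adjusted p = 0.0371) at 494, 388 and 1272 in the knockout against 153, 184 and 320 in the wild-type libraries, but its near-identical copies in the histone cluster make the count uncertain.

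The promoters of Ube2c and Top2a are shown because they hold TTTGAA, the core of the cell cycle homology region found in late cell cycle genes, close to the start. They are the 250 bases before each RefSeq start (GRCm38.p6; Ube2c chr2:164769679-164769928, plus strand; Top2a chr11:99024190-99024439, minus strand), 5′ to 3′ in the direction of the gene, with TTTGAA or its reverse complement TTCAAA in capitals:
Ube2c: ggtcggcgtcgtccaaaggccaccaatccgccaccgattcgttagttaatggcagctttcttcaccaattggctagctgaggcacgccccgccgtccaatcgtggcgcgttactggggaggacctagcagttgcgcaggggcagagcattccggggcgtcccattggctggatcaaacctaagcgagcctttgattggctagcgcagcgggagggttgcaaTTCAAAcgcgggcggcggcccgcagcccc
Top2a: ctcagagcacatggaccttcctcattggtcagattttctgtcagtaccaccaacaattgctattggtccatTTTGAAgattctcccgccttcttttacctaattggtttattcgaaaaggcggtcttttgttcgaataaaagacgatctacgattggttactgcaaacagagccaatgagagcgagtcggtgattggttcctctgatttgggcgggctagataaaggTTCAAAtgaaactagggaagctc
The match nearest the start is at -29 to -24 in Ube2c and at -23 to -18 in Top2a. The RefSeq start of Ube2c lies downstream of the first base of the gene in GENCODE, and its match lies within that gene. The motif was found on either strand in 9 of 29 mitosis genes with a promoter in the table (31.0%), against 13.3% of 10338 tested genes, and in 3 of 25 replication genes. It was not found in the window of Birc5.

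Genes of protein synthesis and turnover lay slightly higher. Cytosolic ribosomal protein genes were positive in 48 of 48 members and higher in 3 of 3 pairs in 45, with a median of 0.64 (0.43, 0.44 and 1.03 in pairs 1, 2 and 3), yet 0 were called in either direction and 43 were higher at an unadjusted p under 0.05 (5.72% of all tested genes). The median was 0.41 to 0.76 with a pair left out. Rpl8 was at 1859, 2070 and 2012 in the knockout against 1097, 1356 and 1123 in the wild-type libraries (log2 fold change 0.74, adjusted p = 0.0871), with no overlap. Short transcripts lay higher, most of all in pair 3: the median log2 fold change was 0.13 in the 3793 shortest tested genes and -0.09 in the 3787 longest. In pairs 1, 2 and 3 it was 0.06, 0.05 and 0.26 in the shortest, and -0.06, -0.06 and -0.18 in the longest. With a smooth of length removed the ribosomal median was 0.55. Proteasome subunit genes had a median of 0.33, 30 of the 31 tested lay above 0, and 0 were called. Psmc2, an ATPase of the proteasome cap, was at 1363, 1169 and 998 in the knockout against 705, 904 and 581 in the wild-type libraries (log2 fold change 0.70, adjusted p = 0.161).

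Chaperones of the endoplasmic reticulum, where CRELD1 and its paralog CRELD2 reside, were positive in 26 of 30 tested members, with 16 higher in 3 of 3 pairs and a median of 0.52 (0.46, 0.38 and 0.61 in pairs 1, 2 and 3). Of them 1 was called higher and 0 lower. This was Manf, a secreted factor induced by stress of that compartment, at 792, 653 and 1037 in the knockout against 285, 387 and 274 in the wild-type libraries. The groups did not overlap (log2 fold change 1.38 ± 0.24, SE; adjusted p = 0.0384), though Manf exons overlap those of Dcaf1 and Rbm15b. Hsp90b1, the compartment's HSP90, was at 11364, 12650 and 4036 in the knockout against 6780, 8466 and 2738 in the wild-type libraries (log2 fold change 0.63, adjusted p = 0.0957). Hspa5, the main chaperone BiP, was at 6721, 7129 and 6666 in the knockout against 4450, 5547 and 4104 in the wild-type libraries, with no overlap (log2 fold change 0.55, adjusted p = 0.187). Creld2 was at 596, 499 and 328 in the knockout against 267, 232 and 336 in the wild-type libraries, higher in pairs 1 and 2 and level in pair 3 (log2 fold changes 1.15, 1.10 and -0.03; adjusted p = 0.529). Among cytosolic chaperones Hsp90aa1 was called higher at 8736, 11841 and 5568 in the knockout against 5571, 6123 and 2149 in the wild-type libraries (log2 fold change 0.99, adjusted p = 0.0371), the only call among 19 with a median of 0.21 (0.13 to 0.30 with a pair left out).

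The promoters of Hspa5, Hsp90b1 and Creld2 are shown because they share the endoplasmic reticulum stress response element, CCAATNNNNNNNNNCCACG, read by ATF6 and NF-Y. They are taken from RefSeq (GRCm38.p6; Hspa5 chr2:34771940-34772089, plus strand; Hsp90b1 chr10:86705445-86705694, minus strand; Creld2 chr15:88819496-88819645, plus strand), 5′ to 3′ in the direction of the gene and ending at the base before the start, with the element on either strand in capitals:
Hspa5: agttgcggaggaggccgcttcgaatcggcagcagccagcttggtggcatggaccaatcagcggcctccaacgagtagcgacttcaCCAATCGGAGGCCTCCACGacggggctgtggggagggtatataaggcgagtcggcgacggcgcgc
Hsp90b1: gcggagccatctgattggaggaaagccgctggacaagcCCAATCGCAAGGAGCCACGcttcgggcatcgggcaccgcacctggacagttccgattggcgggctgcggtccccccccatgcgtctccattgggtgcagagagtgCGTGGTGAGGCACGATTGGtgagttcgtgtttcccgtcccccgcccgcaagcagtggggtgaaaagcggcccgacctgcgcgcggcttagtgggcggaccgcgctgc
Creld2: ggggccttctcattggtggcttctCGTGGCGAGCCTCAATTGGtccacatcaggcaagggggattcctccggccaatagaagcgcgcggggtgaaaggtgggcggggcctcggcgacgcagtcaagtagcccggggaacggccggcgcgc
Within 250 bases before the start, the element was found in 8 of 24 tested chaperone genes with a promoter in the table (33.3%: Hspa5, Hsp90b1, Calr, Canx, Pdia6, Creld2, Dnajc3 and Syvn1), against 15 of 10338 tested genes (0.145%). Each element contains a CCAAT box, which 40.6% of the tested genes hold. The RefSeq starts of Hspa5 and Hsp90b1 lie downstream of the first base of each gene in GENCODE, and the Hspa5 element lies within its GENCODE gene. None of the 21 called genes with a promoter in the table held the element, which is near the share over all tested genes. Manf, the called gene of the chaperone list, had no promoter there and was not searched.

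**Figure D4:**
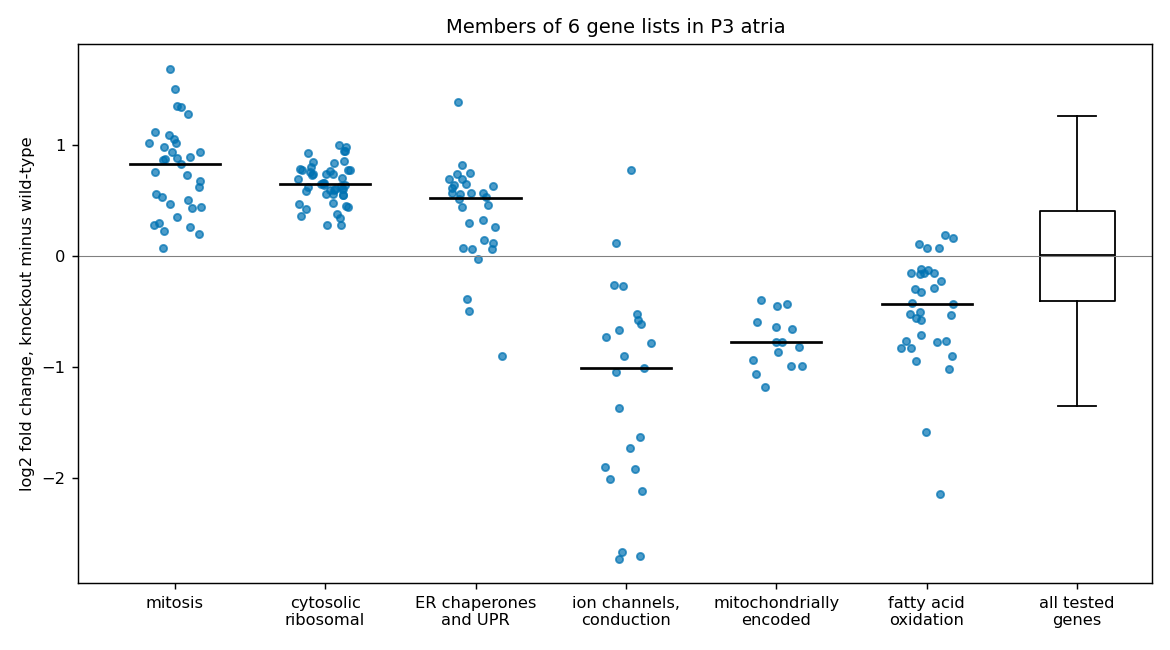
Log2 fold change, knockout minus wild-type, of each tested member (dots) of 6 gene lists in P3 atria, with the median as a line, beside all 15184 tested genes (box: quartiles and median; whiskers: the central 90%). All mitosis and ribosomal protein genes lie above 0 and all mitochondrially encoded transcripts below 0; the medians are 0.82, 0.64, 0.52, -1.01, -0.78 and -0.44 from left to right.

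Myoglobin and the mitochondrially encoded transcripts were both lower. Mb, the oxygen store of muscle (chromosome 15, 77015487 to 77050670, minus strand), was at 323, 346 and 1357 in the knockout against 1400, 3585 and 3998 in the wild-type libraries, and every knockout library was below every wild-type library. The log2 fold change was -2.35 ± 0.30 (SE; adjusted p = 0.00587), with -2.11, -3.37 and -1.56 in pairs 1, 2 and 3. Mb is also more abundant in ventricles (8258 ± 92.8 in knockout and 14799 ± 1230 in wild-type ventricles, SD, n = 3 each). Without pair 2, whose wild-type library held ventricular transcripts, its adjusted p by limma was 0.0306. Without pair 1 it was 0.0567, so the Mb call was lost there. Mitochondrially encoded transcripts were lower in 3 of 3 pairs in 15 of 15 members, with a median of -0.78 (-0.67, -0.49 and -1.15 in pairs 1, 2 and 3), and 2 were called lower and 0 higher. mt-Rnr2, the large mitochondrial ribosomal RNA, was at 213282, 243642 and 18442 in the knockout against 388528, 408944 and 47936 in the wild-type libraries (log2 fold change -0.997, adjusted p = 0.0371). mt-Nd4l, a complex I subunit that shares bases with mt-Nd4, was at 6223, 7873 and 1402 in the knockout against 12259, 11970 and 3306 in the wild-type libraries (log2 fold change -0.94, adjusted p = 0.0371). The groups overlapped for both, and each library of pair 3 was far below those of pairs 1 and 2. With a smooth of transcript GC removed the list median was -0.55. Neither gene was then called (adjusted p by limma 0.1045 for mt-Rnr2 and 0.0608 for mt-Nd4l). Mitochondrial transcripts took 22.6, 24.2 and 3.55% of the signal in knockout libraries 1, 2 and 3, against 31.3, 31.3 and 10.4% in wild-type libraries 1, 2 and 3. All 15 are products of 1 small genome and share their transcription, so they are not 15 separate observations. Nuclear genes of complex I had a median of 0.07 over 37 and those of complexes II to V of 0.10 over 42, with 0 called. With a pair left out these medians ranged from -0.18 to 0.19 and from -0.13 to 0.30, negative in each case without pair 3.

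Fatty acid uptake and oxidation genes were negative in 28 of 33 members, 15 of them in 3 of 3 pairs, with a median of -0.44 (-0.35, -0.76 and -0.12 in pairs 1, 2 and 3) and 0 called in either direction. Lpl, which frees fatty acids from circulating fat, was at 5244, 5534 and 2098 in the knockout against 10625, 10593 and 3033 in the wild-type libraries (log2 fold change -0.83, adjusted p = 0.0951). Hadh, a beta-oxidation enzyme gene, was at 704, 543 and 783 in the knockout against 1068, 1604 and 884 in the wild-type libraries (log2 fold change -0.78, adjusted p = 0.271). The groups did not overlap for Hadh, while the knockout values of Lpl overlapped the low wild-type library 3. Summed fat markers were at 645, 857 and 1036 in the knockout against 1793, 3410 and 1237 in the wild-type libraries, with no overlap. Most of this was Fabp4, a fatty acid carrier that capillary endothelium also expresses, at 602, 806 and 929 in the knockout against 1744, 3370 and 638 in the wild-type libraries. Adipoq, the defining adipocyte hormone, was at 0 in all but wild-type library 3, where it was at 145. Of 9 fat markers 4 were tested, with a median of -0.61 and 0 called, and their part in the fatty acid values was not tested. The metabolic regulators, with a median of -0.48 over 13 (-0.60 to -0.31 with a pair left out) and 0 called, included Ppargc1a, a coactivator of mitochondrial genes, at 905, 850 and 538 in the knockout against 1738, 1017 and 693 in the wild-type libraries (log2 fold change -0.52, adjusted p = 0.414). Glycolysis genes had a median of 0.34 over 22 (0.22 to 0.41 with a pair left out), with 1 called higher. This was Eno1, the embryonic enolase, at 843, 712 and 6803 in the knockout against 448, 330 and 1795 in the wild-type libraries (log2 fold change 1.31, adjusted p = 0.0371), whose reads may be shared with the near-identical copy Eno1b. Aldoa, the muscle aldolase, was at 2730, 2128 and 16715 in the knockout against 1815, 1653 and 8604 in the wild-type libraries (log2 fold change 0.64, adjusted p = 0.221).

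Matrix genes split. The fibroblast list had 3 of 18 members called lower and 0 higher, and the small proteoglycan list had 2 of 12 called lower and 0 higher, with medians of -0.23 (-0.26 to -0.15 with a pair left out) and -0.56 (-0.72 to -0.22, the last without pair 2). Lum, which spaces collagen fibrils (chromosome 10, 97565128 to 97572703, plus strand), was at 541, 733 and 484 in the knockout against 2665, 2328 and 1376 in the wild-type libraries, with no overlap (log2 fold change -1.82 ± 0.23, SE; adjusted p = 0.00587). Dcn, decorin, its neighbour on chromosome 10, was at 1480, 1878 and 2292 in the knockout against 4540, 5011 and 5772 in the wild-type libraries, again with no overlap (log2 fold change -1.45 ± 0.20, SE; adjusted p = 0.0101). Postn, periostin of valve and fibroblast matrix, was at 14009, 15408 and 5837 in the knockout against 26430, 24667 and 10894 in the wild-type libraries (log2 fold change -0.83, adjusted p = 0.0491). Its groups overlapped through pair 3. Other fibroblast genes pointed up: Vim, the intermediate filament vimentin, was at 14377, 13248 and 11808 in the knockout against 9024, 10230 and 7140 in the wild-type libraries (log2 fold change 0.59, adjusted p = 0.124). The summed signal of the 18 fibroblast markers was 80883 to 83536 in the knockout against 97508 to 102100 in the wild-type libraries. This sum includes Lum, Dcn and Postn themselves, so it is not separate from their calls. Its part in the Lum and Dcn results was not tested. The summed signal of 14 epicardial markers was 2679, 4188 and 3273 in the knockout against 4080, 3996 and 5236 in the wild-type libraries, lower in pairs 1 and 3 with 11 of 14 members negative. The part of these markers in the Lum and Dcn results was not tested either.

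Elastic fibre genes had a median of 0.36 over 19 (0.16 to 0.60 with a pair left out), with 0 called in either direction and 13 positive. Eln, elastin, was at 8378, 7065 and 34714 in the knockout against 1530, 4672 and 8956 in the wild-type libraries, higher in 3 of 3 pairs (log2 fold change 1.67, adjusted p = 0.0511). Lox, which cross-links elastin and collagen, was at 1667, 1474 and 1443 in the knockout against 802, 883 and 421 in the wild-type libraries, with no overlap (log2 fold change 1.19, adjusted p = 0.107). Emilin2, an elastic fibre glycoprotein gene, was at 140, 40.9 and 114 in the knockout against 215, 374 and 424 in the wild-type libraries (log2 fold change -1.89, adjusted p = 0.0847). Collagen genes had a median of 0.02 over 17 (-0.02 to 0.13 with a pair left out) with 0 called. Col8a1, a short-chain collagen gene, was at 237, 516 and 403 in the knockout against 29.1, 90.7 and 69.5 in the wild-type libraries, with no overlap (log2 fold change 2.67, adjusted p = 0.218). Igfbp5, a binding protein of insulin-like growth factors, was at 1672, 1621 and 1244 in the knockout against 4065, 3029 and 4728 in the wild-type libraries (log2 fold change -1.37, adjusted p = 0.102), and the list it belongs to had a median of 0.01 over 14 (-0.17 without pair 2) with 0 called. Cldn11, a tight junction protein gene, was called lower at 7.30, 0 and 0 in the knockout against 161, 99.6 and 47.0 in the wild-type libraries (adjusted p = 0.0371), a low gene whose fold change depends on the value added before the logarithm.

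Of 11 tested erythroid genes, 3 were called higher in the knockout and 0 lower, and 9 were positive and 2 negative. The median was 1.59 (0.26, 1.19 and 1.76 in pairs 1, 2 and 3), with 1.01 without pair 2 and 1.04 without pair 3. Hba-a1, an adult alpha globin gene, was at 4264, 5527 and 21923 in the knockout against 2104, 1743 and 2594 in the wild-type libraries (log2 fold change 1.92, adjusted p = 0.0371). Hba-a2 is its near-identical copy, so reads cannot be assigned with certainty between them, and it had a log2 fold change of 1.78. Hbb-bs, an adult beta globin gene, was at 8659, 12448 and 31469 in the knockout against 4528, 5257 and 5174 in the wild-type libraries (log2 fold change 1.59, adjusted p = 0.0371). Every knockout library was above every wild-type library for the 3 genes, and knockout library 3 was far above the rest. Summed erythroid signal, these 3 genes included, was 32053, 42593 and 134600 in knockout libraries against 16779, 16780 and 19946 in wild-type libraries 1, 2 and 3. The part of blood content in these values was not tested.

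Endothelial markers had a median of 0.14 over 15 (-0.09 to 0.14 with a pair left out), macrophage markers of -0.01 over 18 (-0.14 to 0.34) and epicardial markers of -0.48 over 14, with 0 called in each. Tek, the angiopoietin receptor gene, was at 969, 880 and 613 in the knockout against 1797, 1440 and 1003 in the wild-type libraries (log2 fold change -0.77, adjusted p = 0.131), while Emcn, endomucin, was at 1229, 996 and 918 in the knockout against 410, 329 and 478 in the wild-type libraries (log2 fold change 1.37, adjusted p = 0.187). The groups did not overlap for either gene, and the 2 markers pointed in opposite directions. Lyve1, of resident macrophages and lymphatic vessels, was at 105, 146 and 90.3 in the knockout against 435, 425 and 204 in the wild-type libraries (log2 fold change -1.58, adjusted p = 0.353). Summed lung epithelial markers were at most 22.5 in the knockout and 102 in the wild-type libraries, and thymus markers at most 57.2 in the knockout and 66.3 in the wild-type libraries. Immediate early genes, which respond to handling within minutes, had a median of -0.83 over 18 (-0.99 to -0.55 with a pair left out) with 0 called. Members went both ways, 5 positive and 13 negative. The summed signal of the list was not lower in pairs 2 and 3 (log2 ratios of -0.07, 0.15 and 0.56 in pairs 1, 2 and 3). Jun, a negative member, was at 122, 188 and 253 in the knockout against 301, 369 and 324 in the wild-type libraries (log2 fold change -0.88, adjusted p = 0.349).

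The ventricles labelled as from the same pups, analysed in the same fit, gave 2 called genes (0.0132% of 15184). Of the 21 genes higher in knockout atria 17 were also positive in ventricles, as were 52.4% of all tested genes positive in atria. Of the 10 lower genes 8 were also negative in ventricles, as were 55.0% of all tested genes negative in atria. The called genes were selected on their atrial values, so the sizes in the 2 tissues are not compared as a set. Nppa was the 1 atrial call also called in ventricles, where its log2 fold change was 2.70 (adjusted p = 0.00126). Mest was not called in ventricles. It was at 2645, 1941 and 2292 in knockout ventricles against 2706, 2727 and 3125 in wild-type ventricles 1, 2 and 3, a level like that of wild-type atria. Its log2 fold changes there were -0.03, -0.49 and -0.45 in pairs 1, 2 and 3 (mean -0.32, adjusted p = 0.870 by limma). The difference between the atrial and the ventricular knockout effect, tested by limma within labelled pups with the replicate block, was 2.503 on the log2 scale for Mest (adjusted p = 0.0334), the only gene of 15184 to pass (0.00659%). Without pair 2, in which the labelled wild-type pup's tissues disagreed in Xist, it was 2.42 with an adjusted p of 0.0585 and 0 genes passed, and without the block it was 2.503 with an adjusted p of 1.00. For the mitosis list, the atrial median of 0.82 stood beside a ventricular median of -0.09. Birc5 averaged 708 ± 168 in knockout atria against 245 ± 21.7 in wild-type atria, and 696 ± 149 in knockout ventricles against 728 ± 106 in wild-type ventricles (SD, n = 3 each). Its difference between tissues did not pass (1.58, adjusted p = 0.658). The ribosomal list had a median of 0.02 in ventricles and the mitochondrially encoded list of -0.29, and these differences between tissues were not tested as lists.

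**Figure D5:**
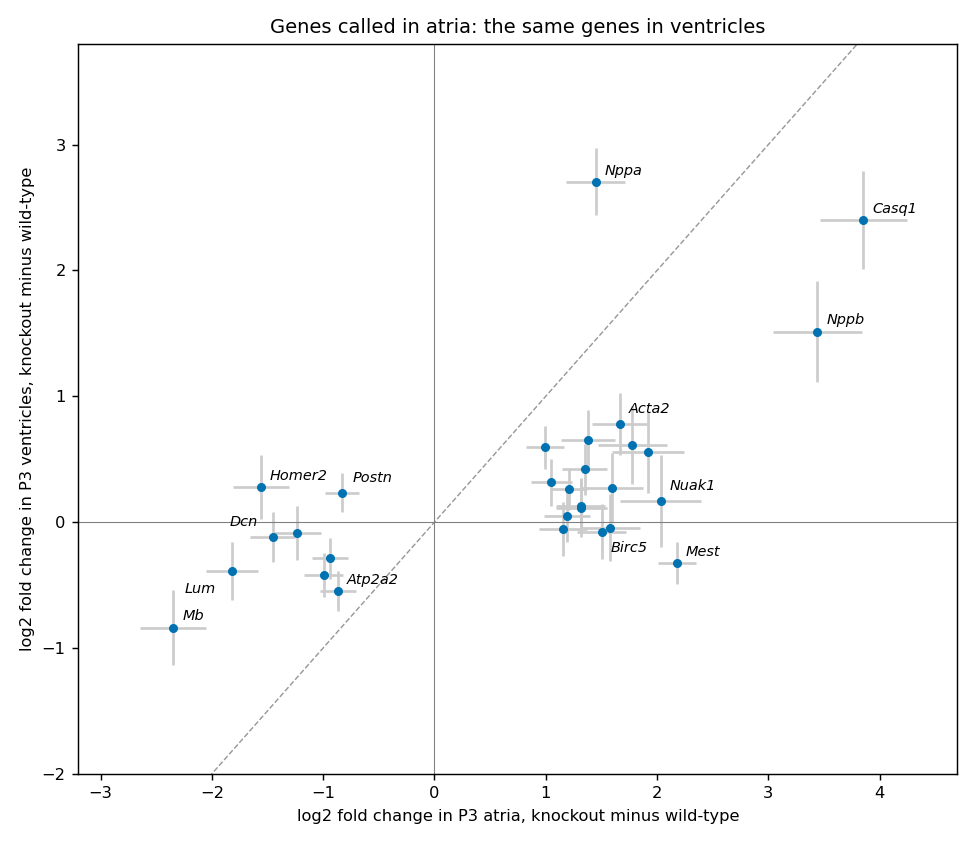
Log2 fold change, knockout minus wild-type, in P3 atria (horizontal) and P3 ventricles (vertical) for 29 of the 31 genes called in atria, with SE bars from the fit; the dashed line marks equal values. The genes were selected on the horizontal axis; Nppa lies above the line at 2.70 in ventricles, and Mest lies below 0 there.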

How the data were processed

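Libraries were made by SMART-Seq2 per the labels' protocols. Per the submitters' processing notes, bcl2fastq 2.2, STAR 2.5.1, DESeq2 and mm10 were used; which counting tool and annotation served is not given in the sources used here. What the authors deposited is a table of normalized, linear signal for 26440 genes in 20 libraries. Whole reads could not be recovered for all genes, so no count test was run. Estimated reads come from the smallest step of each library and cover counting error only, because PCR copies were not marked by molecular identifiers.

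Signal was tested as log2(signal + 1), which understates the change of low genes, for 15184 genes that reached 10 in 3 or more of the 6 atrial libraries. The test was limma 3.58.1 in R 4.3.3, two-sided, with a variance trend, Benjamini-Hochberg adjustment and the 10 pairs as a block. All 20 libraries shared 1 spread (7 residual and 6.84 prior degrees of freedom), and the 3 atrial pairs set the fold change. The labels give paired libraries 1 litter and preparation date. Deviations from group means correlated at 0.233 to 0.693 between atrial libraries of a pair and at -0.460 to 0.261 between the others. The p-values rest on the spread of all 10 pairs and not of the atrial pairs alone. Of the 7 residual degrees of freedom, 2 came from atrial, 2 from ventricular and 3 from E13.5 pairs. Ventricular pairs were treated as separate from atrial pairs, although the labels give both to the same pups.

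On simulated data for the atrial contrast over 15184 genes, 20% of 100 genes changed by 1 on the log2 scale and 77% of 100 changed by 2 were called, with 4 false calls. The changed genes were drawn from those above the median atrial level. The simulated noise was normal and independent between tissues, without a GC offset or ventricular transcripts. These rates therefore need not hold for the real libraries or for low genes. Named genes were Creld1, Creld2, every called member of a list, up to 15 called genes per direction with the largest change (median level or above, proper symbols, no sex-linked genes, 1 sign in 3 pairs), and 2 to 4 members per list with the smallest p and 1 sign in 3 pairs; some of these are covered by their list's counts, and 3 are not reported here. The members, lists and tests were chosen with earlier results of these data known. Alternatives changed the scaling, filter, pseudocount, spread, block and libraries. Coordinates are from GENCODE on mm10, promoters from RefSeq.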

Additional observations from a re-analysis of the deposited data

Results flagged for a closer look

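Mest was the 1 result whose knockout effect differed between atria and ventricles labelled as the same pups, by a test of the difference itself. The log2 fold change was 2.503 larger in atria than in ventricles (limma within labelled pups, adjusted p = 0.0334). It was positive in 3 of 3 atrial pairs and negative in 3 of 3 ventricular pairs. The ventricular change was only -0.03 in pair 1 and was not called (mean -0.32, adjusted p = 0.870 by limma). The tissues labelled as wild-type pup 2 disagreed in Xist (2876 in atria and 74.9 in ventricles), and without pair 2 the difference was 2.42 with an adjusted p of 0.0585. The groups of 3 libraries were too small for a check of single libraries that stand apart.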

How the results depend on the processing

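Of the 21 genes higher and 10 lower, 4 and 1 were still called without the pairs as a block. The 6 atrial libraries alone called 12 and 3 with the block, of which 4 and 3 were among the 31, and 0 and 0 without it (416 genes at an unadjusted p under 0.05). No variance trend gave 0 and 0, no filter beyond a value above 0 gave 7 and 4, a GC smooth 9 and 4, and log2 Xist as a covariate 5 and 3. Pseudocount 10 gave 30 and 19, quantile normalization 30 and 25, and a length smooth, chosen after seeing the data, 19 and 6. The other scalings, filters and spreads (1 of them, without E13.5 replicate 1 in the spread, also chosen after) gave 19 to 23 higher and 9 to 14 lower. Leaving out pairs or single libraries gave 2 to 11 higher and 0 to 5 lower. Without replicate 1 the counts were 2 and 0, without replicate 2 10 and 3, without replicate 3 5 and 4. Mest was called under 23 of 25 alternatives, Nppb under 22, Casq1 20, Lum 19, Mb 17, Birc5 16, Acta2 14 and Dcn 13.

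For the difference within pups, 1 gene passed, against 0 without the block (342 at an unadjusted p under 0.05 by limma), 0 without the trend (929) and 0 to 3 with a pair left out; the 0, without pair 2, had 1123.

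Directions turned for 7 genes, each with 1 library left out and no block. Without knockout library 3 the log2 fold changes were 0.21 for mt-Rnr2, 0.22 for mt-Atp6, 0.0912 for Ndufs1 and -0.29 for Aldoa. Without wild-type library 3 they were 0.53 for Mef2d, -0.35 for Atp5k and -0.0018 for Slc38a4, and without knockout library 1 Mef2d was at 0.20. Of 32 list medians, 17 kept 1 sign in all 25 alternatives, among them mitosis (0.59 to 0.94), ribosomal (0.30 to 0.80), chaperones (0.30 to 0.54), ion channels (-1.36 to -0.81) and fatty acid oxidation (-0.58 to -0.37). The mitochondrially encoded median was negative in 24 and 0.28 in the other. The causes of these shifts were not tested. The shallowest library, wild-type 2, limits low genes such as Creld1.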
